A study of Mus musculus with 12 samples.

Results

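The RNA of 10 genes that help to set how immune cells respond to a tumour cell was followed in quiescent and cycling stem and progenitor cells of a mouse model of chronic myeloid leukemia (CML), with and without imatinib. The genes were taken as a fixed list from the 46102 genes of the series, and comprise the ligands of inhibitory T cell receptors (Cd274, Pdcd1lg2, Lgals9, Pvr and Cd276), the checkpoint receptor gene Havcr2, the costimulatory ligand gene Cd86 and the phagocytosis-blocking or immune-dampening surface proteins Cd47, Cd24a and Cd200. Of these, 8 reached 1 RPKM (reads per kilobase of transcript, scaled to the library total) in at least 3 of the 12 libraries and were tested among 10072 genes. Cd86 and Cd200 did not reach it.

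All 4 groups were C57BL/6 BCR-ABL1+CD27+ KSL cells (lineage-negative, Sca1-positive, c-Kit-positive) from bone marrow and spleen, and each of the 3 libraries per group was made from 100 cells. The leukemia was made by retroviral transfer of BCR-ABL1 into marrow of fluorouracil-treated G0M mice, whose fluorescent reporter of the G0 phase is switched on by Vav1-Cre in blood cells, and by transplantation into lethally irradiated wild-type mice together with unmanipulated marrow, so the host also held normal blood cells outside the sorted BCR-ABL1+ gate. DP cells (G0M+) and SP cells (G0M-) came from mice given vehicle, and IMDP cells (G0M+) and IMSP cells (G0M-) from mice given imatinib at 40 mg/kg from day 10. Imatinib inhibits the BCR-ABL1 kinase. Whether a library is 1 mouse or a pool was not given in the sources used here, so p values measure the spread between these libraries, which may be technical.

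A tumour cell can stop a T cell by offering PD-L1 (Cd274) or PD-L2 (Pdcd1lg2) to the receptor PD-1, galectin-9 (Lgals9) to TIM-3, or the poliovirus receptor (Pvr) to TIGIT. It can stop a macrophage by showing CD47 to SIRP-alpha or CD24 to a Siglec, and it invites uptake by showing calreticulin. CML stem cells can survive kinase inhibition, immune control is known to contribute to remission, and PD-L1 is known to be induced by interferons and by NF-kB.

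The start regions of 4 members are shown because Cd274, Pdcd1lg2 and Havcr2 were the members whose RNA passed the test between G0M+ and G0M- cells and Lgals9 was an abundant member that did not. The sequences are from RefSeq (GRCm38.p6), 5′ to 3′ on the strand of the gene, limited to bases before the start site that lie in no annotated exon, with motif matches in capitals.
Cd274, chr19:29367391-29367437, plus strand: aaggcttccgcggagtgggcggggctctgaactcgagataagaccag
Pdcd1lg2, chr19:29410669-29410918, plus strand: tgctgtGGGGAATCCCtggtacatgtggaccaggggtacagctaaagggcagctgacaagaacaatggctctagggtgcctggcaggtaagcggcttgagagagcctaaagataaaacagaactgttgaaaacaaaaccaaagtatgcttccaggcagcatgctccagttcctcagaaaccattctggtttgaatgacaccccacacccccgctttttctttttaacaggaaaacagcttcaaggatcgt
Havcr2, chr11:46454681-46454930, plus strand: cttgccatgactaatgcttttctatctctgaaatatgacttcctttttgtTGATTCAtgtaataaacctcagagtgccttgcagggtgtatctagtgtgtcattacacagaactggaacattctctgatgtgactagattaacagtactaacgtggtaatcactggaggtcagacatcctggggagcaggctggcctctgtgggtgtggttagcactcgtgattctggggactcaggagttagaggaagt
Lgals9, chr11:78984947-78985174, minus strand: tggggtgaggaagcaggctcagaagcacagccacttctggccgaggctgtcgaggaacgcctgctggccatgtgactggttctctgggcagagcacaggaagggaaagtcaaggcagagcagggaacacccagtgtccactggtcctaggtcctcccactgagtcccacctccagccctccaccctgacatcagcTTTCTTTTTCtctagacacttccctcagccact
Of the 10 members, 7 matched an entry of the promoter table (Cd24a, Pvr and Cd86 did not), and their windows from 250 bases before to 50 bases after the start were searched on both strands for 7 motifs. These were the NF-kB consensus, the core of the interferon-stimulated response element (GAAA, any 2 bases, then GAAA), the interferon-gamma site TTCNNNGAA, the AP-1 motif TGANTCA, the CRE TGACGTCA, the TATA letters TATAAA and the E-box CACGTG. Pdcd1lg2 held the NF-kB consensus at -244 to -235, which 8.459% of 32851 windows hold, and Havcr2 held the AP-1 motif at -200 to -194, which 7.808% hold. Lgals9 held that core on the reverse strand at -55 to -46 and again at 16 to 25 after the start, and 3.443% of windows hold it. The window of Cd274 matched none of these 7 motifs. The 47 bases printed for Cd274 lie between Plgrkt, a gene of the opposite strand, and the RefSeq start of Cd274. GENCODE places the start of Cd274 further downstream, with 64 bases between it and the start of Plgrkt.

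The depth ranged from 11.4 M to 20.6 M reads per library, of which 25.9% to 37.1% fell on listed features, so 1 read on a transcript of 1 kb was worth 0.0486 to 0.0880 RPKM and values of a few hundredths rest on single reads. Mki67, a proliferation gene, lay between 7.18 and 21.2 RPKM in the 6 G0M+ libraries and between 50.8 and 70.6 RPKM in the 6 G0M- libraries. The cells expressed Kit (16.8 to 39.8 RPKM), Cd27 (12.2 to 21.4 RPKM) and Ly6a, the gene of Sca1 (3.12 to 20.8 RPKM). Relative to the authors' library totals, the median of all 10072 genes tested moved by -0.25 (log2) between IMDP and IMSP cells, by -0.17 between IMDP and DP cells, by -0.13 between G0M+ and G0M- cells averaged over treatment and by -0.25 in the interaction, and changes below are to be read against these shifts. The imatinib libraries carry the numbers 1 to 6 and the vehicle libraries 7 to 12, so treatment and library order cannot be told apart.

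The members fell into 3 separate ranges of RNA level on the RPKM scale, which corrects for transcript length. Lgals9 (median 63.7 RPKM over 12 libraries), Cd24a (63.3 RPKM) and Cd47 (56.9 RPKM) lay highest and overlapped with each other over the 12 libraries. Cd274 came next with a median of 8.00 RPKM, and its lowest library (3.53 RPKM) was above the highest library of each of the 6 members below it. Pvr (median 1.38 RPKM), Havcr2 (1.00 RPKM), Cd276 (0.581 RPKM), Pdcd1lg2 (0.541 RPKM) and Cd86 (0.522 RPKM) overlapped in their ranges. Cd200 was at 0 in 5 libraries and never exceeded 15 reads. The plot of the members by library shows these levels side by side.

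**Figure D1:**
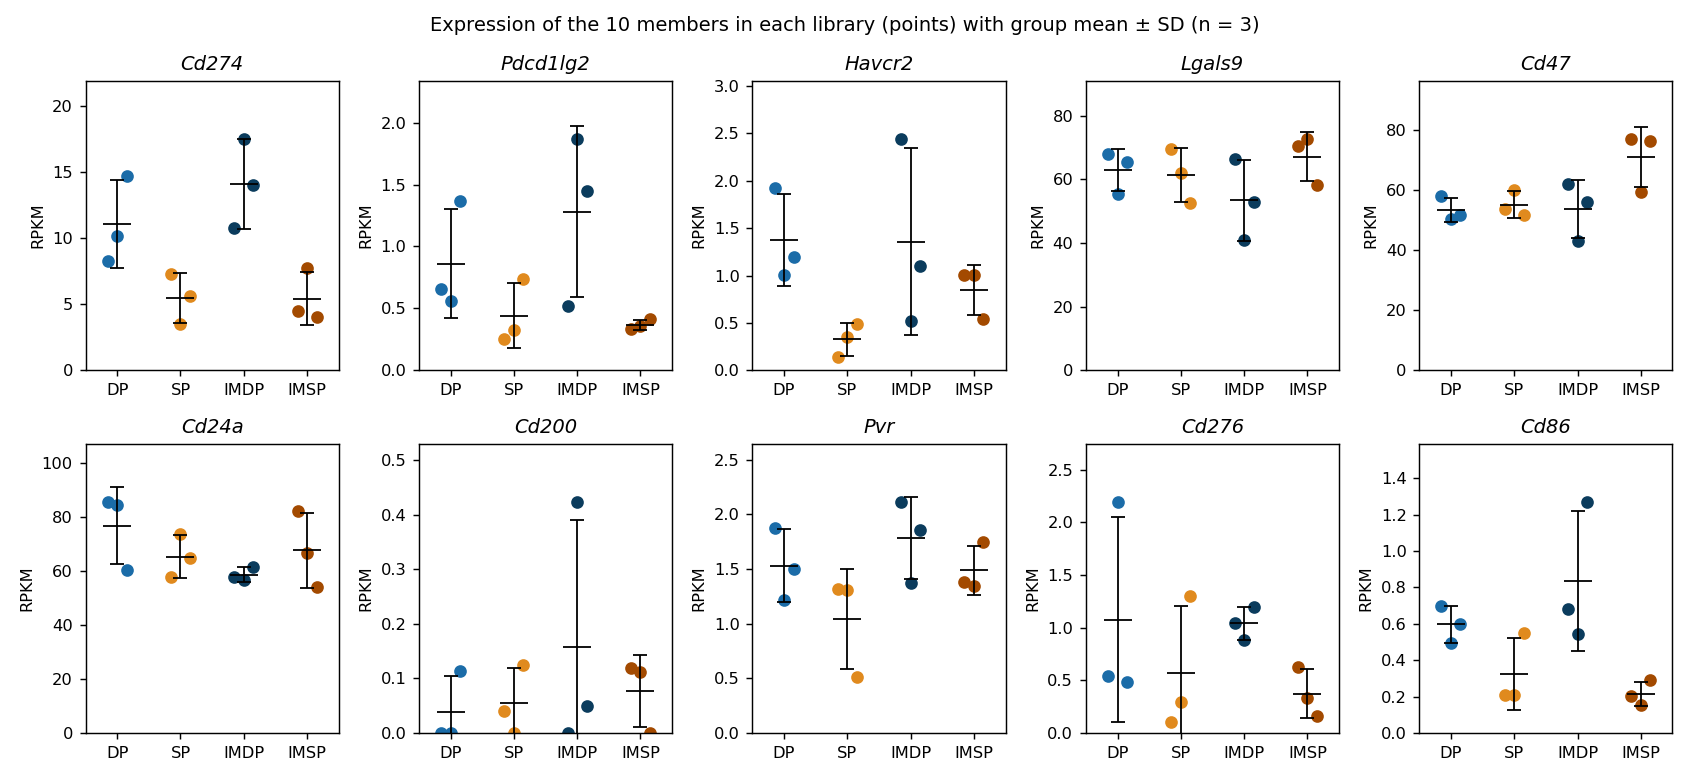
RPKM of each of the 10 members (y axis, linear, own scale per panel) in the 3 libraries of DP, SP, IMDP and IMSP cells (points), with the group mean and SD as black bars, which are cut at 0. Cd274 in the G0M+ groups DP and IMDP lies between 8.26 and 17.5 RPKM, above all 6 G0M- libraries, while Lgals9, Cd47 and Cd24a overlap between the groups of each population and treatment pair.

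Of the ligands of PD-1, Cd274 (PD-L1, chr19:29367455-29388095, plus strand, protein-coding) had the clearest difference between the populations. Its RNA was at 8.26, 10.2 and 14.7 RPKM in DP1, DP2 and DP3, and at 7.32, 3.53 and 5.65 RPKM in SP1, SP2 and SP3. After imatinib it was at 10.8, 17.5 and 14.0 RPKM in the IMDP libraries and at 4.52, 7.74 and 4.04 RPKM in the IMSP libraries. Each G0M+ library was above each G0M- library, and the values rest on 198 to 949 reads. Averaged over treatment, Cd274 was higher in G0M+ cells by 1.20 on the log2 scale (SE 0.23, limma, adjusted p = 0.00378). The exact permutation test of 6 against 6 libraries, two-sided and unadjusted over the 10 members, gave p = 0.00216, the smallest that a free shuffle can give. The shuffle kept neither the treatments nor the pairs of neighbouring library numbers described below, so this p does not allow for them. In imatinib-treated mice, IMDP cells exceeded IMSP cells by 1.39 (SE 0.32, limma, adjusted p = 0.0108). In vehicle-treated mice, DP exceeded SP cells by 1.01 (SE 0.32), which did not pass (limma, adjusted p = 0.170) although the libraries did not overlap. The difference between IMDP and IMSP cells did not pass without IMSP replicate 1 (limma, adjusted p = 0.0525), and passed with each of the other 11 libraries left out.

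Pdcd1lg2 (PD-L2, chr19:29410919-29471161, plus strand), which begins 22823 bases beyond the end of Cd274, lay about an order of magnitude lower. It measured 0.654, 0.561 and 1.37 RPKM in the DP libraries, and 0.256, 0.328 and 0.739 RPKM in the SP libraries. In the imatinib arm it measured 0.521, 1.87 and 1.45 RPKM in IMDP libraries and 0.333, 0.361 and 0.413 RPKM in IMSP libraries. The IMDP and IMSP libraries did not overlap, whereas DP and SP libraries did. It reached 1 RPKM in DP3, IMDP2 and IMDP3 alone, so it entered the test only through G0M+ libraries. Pdcd1lg2 was higher in G0M+ cells by 1.12 averaged over treatment (SE 0.38, limma, adjusted p = 0.0455), close to the threshold, and the call held in 2 of 12 fits with 1 library left out (SP3 or IMDP1) and was lost without the filter on low values (limma, adjusted p = 0.0590). The difference of 1.40 between IMDP and IMSP cells (SE 0.53) did not pass (limma, adjusted p = 0.0706), and passed with the replicate number as a block (limma, adjusted p = 0.0496). GENCODE M21 lists 1 antisense gene over Cd274, 1 over Pdcd1lg2, 2 genes over Pvr and 1 over Cd276, and a library kit that does not mark strand cannot separate their reads.

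The TIM-3 axis holds the receptor gene Havcr2, also used as a surface marker of leukemic stem cells, and its ligand gene Lgals9. Havcr2 (chr11:46454935-46481255, plus strand) was at 1.92, 1.01 and 1.19 RPKM in DP and at 0.143, 0.346 and 0.491 RPKM in SP libraries. After imatinib the values were 2.44, 0.518 and 1.10 RPKM in IMDP and 1.00, 1.00 and 0.544 RPKM in IMSP libraries. The vehicle groups did not overlap, the imatinib groups did, and SP was the group with the lowest values, below each IMSP library. Averaged over treatment, Havcr2 was higher in G0M+ cells by 1.13 (SE 0.37, limma, adjusted p = 0.0434), a call that held in 3 of 12 fits with 1 library left out (SP3, IMDP2 or IMSP2) and was lost at a pseudocount of 1 (limma, adjusted p = 0.0506) and without the filter (limma, adjusted p = 0.0684). The difference of DP against SP cells was 1.83 (SE 0.53, limma, adjusted p = 0.122) and that of IMSP against SP cells 1.20 (SE 0.53, limma, adjusted p = 0.571). The population difference changed with imatinib by -1.41 (SE 0.75), which did not pass (limma, adjusted p = 0.553).

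Lgals9 (chr11:78962974-78984946, minus strand) gave no difference past the threshold. It measured 67.8, 55.5 and 65.5 RPKM in DP, 69.5, 61.9 and 52.5 RPKM in SP, 66.4, 40.9 and 52.8 RPKM in IMDP, and 70.3, 72.7 and 58.2 RPKM in IMSP libraries. The groups overlapped in each comparison. The G0M+ to G0M- difference was -0.15 with a 95% interval of -0.43 to 0.13, and its sign turned under scaling to the median or to the reads on listed features.

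Cd47 (chr16:49800533-49915010, plus strand), the ligand of SIRP-alpha and a well known signal against phagocytosis, was abundant in all groups and leaned the other way from Cd274. It was at 57.9, 50.2 and 51.6 RPKM in DP and at 53.5, 60.0 and 51.4 RPKM in SP libraries. It reached 61.8, 42.9 and 55.9 RPKM in IMDP and 76.9, 59.4 and 76.2 RPKM in IMSP libraries. IMSP1 and IMSP3 held the highest values, and the groups overlapped in each comparison. IMDP against IMSP cells gave -0.41 (95% interval -0.75 to -0.07, limma, adjusted p = 0.0734), which shrank to -0.14 after scaling to the median of all genes. DP against SP cells gave -0.046, and its sign turned with the reads on listed features as the denominator. Cd24a (chr10:43578284-43584265, plus strand), a ligand of inhibitory Siglecs, was at 85.8, 84.3 and 60.3 RPKM in DP, 57.7, 73.6 and 64.9 RPKM in SP, 58.0, 56.5 and 61.7 RPKM in IMDP, and 82.2, 66.7 and 54.1 RPKM in IMSP libraries. Its groups overlapped too, and its largest difference between groups, -0.37 for IMDP against DP cells, had a 95% interval of -0.76 to 0.019. The sign of its difference between IMDP and IMSP cells (-0.18) turned under both scalings.

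Cd200 (chr16:45382135-45409053, minus strand), whose protein restrains myeloid cells through its receptor, was barely detected. It was at 0, 0 and 0.114 RPKM in DP, 0.0409, 0 and 0.125 RPKM in SP, 0, 0.424 and 0.0496 RPKM in IMDP, and 0.120, 0.111 and 0 RPKM in IMSP libraries. At 0 to 15 reads per library no difference between groups was detectable at this depth.

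Among the other ligands of T cells and natural killer cells, Cd276 (B7-H3, chr9:58524298-58555437, minus strand) varied most between libraries. It was at 0.539, 2.20 and 0.486 RPKM in DP and 0.106, 0.295 and 1.30 RPKM in SP libraries. It was at 1.04, 0.883 and 1.20 RPKM in IMDP and 0.623, 0.330 and 0.162 RPKM in IMSP libraries. The IMDP libraries were all above the IMSP libraries and the vehicle groups overlapped. The differences of 1.39 for IMDP against IMSP cells (SE 0.73, limma, adjusted p = 0.178) and 1.18 averaged over treatment (SE 0.52, limma, adjusted p = 0.107) did not pass, and both passed with pairs of neighbouring library numbers as a block. Pvr (chr7:19903578-19921160, minus strand) was at 1.88, 1.22 and 1.50 RPKM in DP, 1.31, 1.31 and 0.514 RPKM in SP, 2.12, 1.37 and 1.86 RPKM in IMDP, and 1.38, 1.34 and 1.75 RPKM in IMSP libraries. Its IMSP libraries stood above its SP libraries by a small margin, and its fits gave no call.

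Cd86 (chr16:36603869-36666081, minus strand), the B7-2 ligand of CD28 and CTLA-4, rests on 5 to 61 reads per library. It was at 0.699, 0.497 and 0.597 RPKM in DP and 0.206, 0.208 and 0.551 RPKM in SP libraries. It was at 0.684, 0.546 and 1.27 RPKM in IMDP and 0.201, 0.155 and 0.288 RPKM in IMSP libraries. The imatinib groups did not overlap and the vehicle groups did. Since Cd86 missed the filter, it was fitted with all 16775 genes above 0, where IMDP cells exceeded IMSP cells by 1.51 (SE 0.41, limma, adjusted p = 0.0340) and G0M+ cells exceeded G0M- cells by 1.16 (SE 0.29, limma, adjusted p = 0.0231). The first held in 8 of 12 fits with 1 library left out and was lost without IMDP2, IMDP3, IMSP1 or IMSP2. The second held in 8 of 12 and was lost without DP3, SP1, SP2 or IMSP1.

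**Figure D2:**
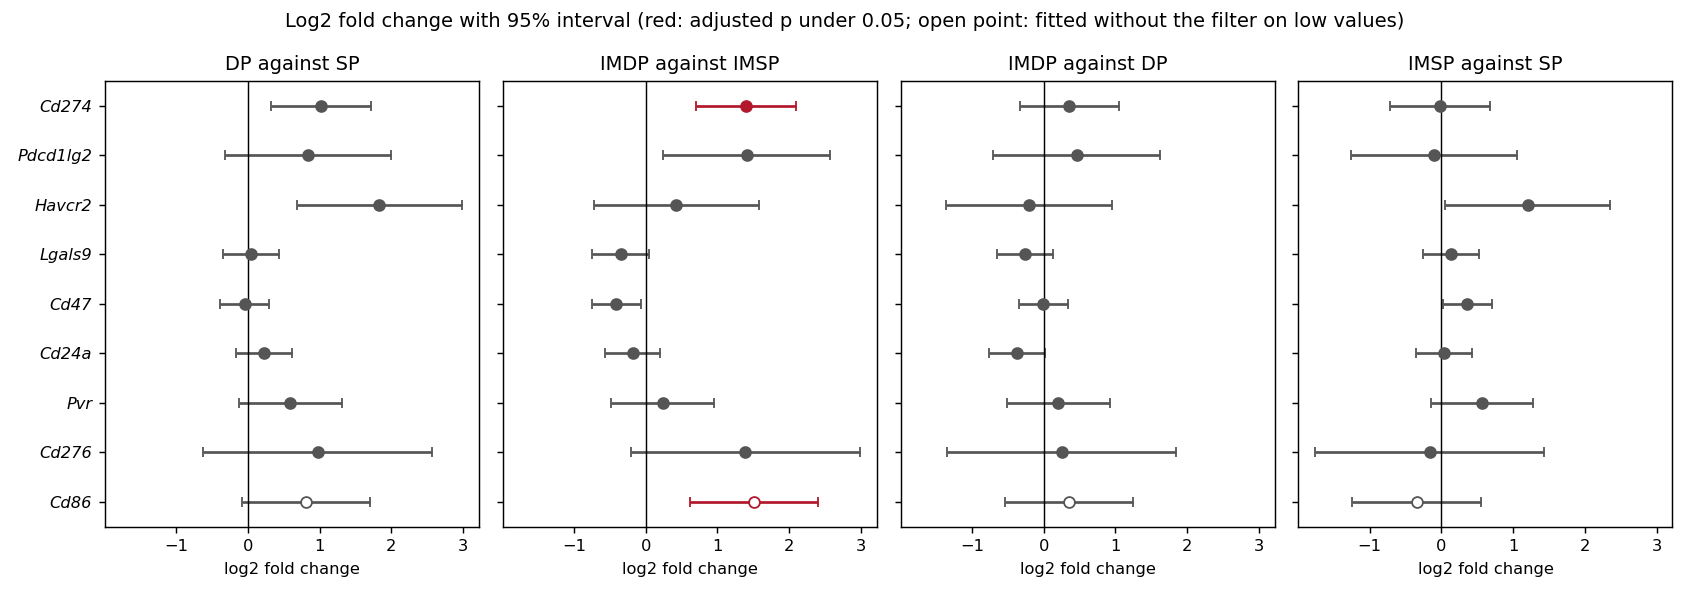
Log2 fold change of 9 members (Cd200 is left out) with its 95% interval from limma in the 4 comparisons of pairs of groups, with red for an adjusted p under 0.05 and an open point for Cd86, which was fitted without the filter. Cd274 at 1.39 and Cd86 at 1.51 in IMDP against IMSP cells are the red points, and the comparisons of imatinib with vehicle hold none.

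Set against all genes, the comparison of populations averaged over treatment called 3 of 8 members, all higher in G0M+ cells, where 5.32% of the 10072 genes were called higher and 26.3% either way. Of these 3, Pdcd1lg2 passed the filter on low values through G0M+ libraries alone, so the count is a description and supports nothing by itself. Without the filter 2 of 10 members were called, Cd274 and Cd86, in a fit of 16775 genes. With a filter of 0.5 RPKM in 3 libraries the calls were Cd274, Pdcd1lg2, Havcr2 and Cd86. The shares of all genes called with these other filters are not given here, so their counts cannot be set against all genes. Scaling to the median moved the genes called in that comparison from 536 higher of 2648 to 1131 higher of 2379, and the same 3 members passed. IMDP against IMSP cells called 1 of 8 members, Cd274, beside 2.37% of genes called higher, 23.3% called lower and 25.6% either way, and 239 higher of 2581 became 647 of 1587 under that scaling. In that comparison the libraries of 3 of 8 members were higher without overlap, against 6.21% of all genes. DP against SP cells called 0 of 8 by limma (2.26% of genes called either way), with 2 members and 13.2% of genes at an unadjusted p under 0.05 and 0 called by limma-voom. Cd274 and Havcr2 were the 2 of 8 that did not overlap there, against 9.68% of genes higher without overlap.

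The treatment comparisons held no member past the threshold. IMDP against DP cells called 0 of 8 by limma and by limma-voom, with 0 at an unadjusted p under 0.05 beside 20.5% of genes, and 0.367% of genes called. No member was higher without overlap there, against 4.58% of genes. The IMSP against SP comparison called 0 of 8 members and 0% of genes by limma, with 8.39% of genes at an unadjusted p under 0.05, among them Havcr2 and Cd47, and limma-voom called 0 members. Havcr2 and Pvr, 2 of 8, were higher in IMSP than in SP libraries without overlap, against 11.1% of genes. Averaged over population, imatinib called 0 of 8 by both tools, with 0 at an unadjusted p under 0.05 beside 18.0% of genes, and 0.854% of genes called. For Cd274 the averaged effect of imatinib was 0.17 with a 95% interval of -0.32 to 0.66. The interaction called 0 of 8 by both tools and 0% of genes, with 0 members and 9.30% of genes at an unadjusted p under 0.05. The averaged population effect and the averaged imatinib effect of the members are set against all genes in the scatter plot.

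**Figure D3:**
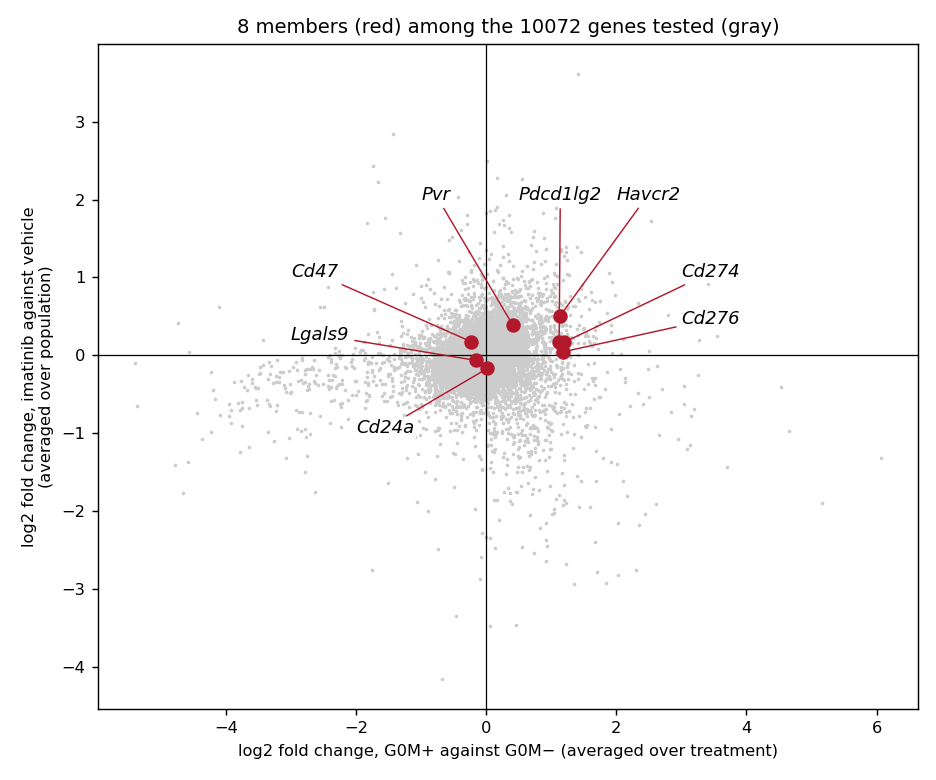
Log2 fold change of G0M+ against G0M- cells averaged over treatment (x axis) and of imatinib against vehicle averaged over population (y axis) for the 10072 genes tested (gray) and the 8 members tested (red). Cd274, Pdcd1lg2, Havcr2 and Cd276 lie at 1.12 to 1.20 on the x axis, and all 8 members lie within -0.17 to 0.50 on the y axis.

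The libraries of neighbouring numbers hold 1 G0M+ and 1 G0M- library each, of the same treatment, and deviated from their group means together (correlation over genes, which are not independent replicates, 0.43 to 0.65 in the 6 pairs). Within these pairs Cd274 was higher in the G0M+ library in 6 of 6, by 0.84 to 1.77 on the log2(RPKM + 0.1) scale. Cd276 and Pvr were also higher in 6 of 6 pairs, by 0.66 to 2.31 and by 0.033 to 1.10. Pdcd1lg2, Havcr2 and Cd86 were higher in 5 of 6 pairs each, and Cd47 in 0 of 6, with differences of -0.47 to -0.034. With these pairs as a block, limma called Cd274 (adjusted p = 0.00409) and Havcr2 (adjusted p = 0.0347) in DP against SP cells, where 9.73% of all genes were then called. In IMDP against IMSP cells the same block called Cd274, Pdcd1lg2 (adjusted p = 0.0423), Cd276 (adjusted p = 0.0205) and, lower, Cd47 (limma, adjusted p = 0.00472), beside 44.1% of all genes. In G0M+ against G0M- cells it called Cd274, Pdcd1lg2, Havcr2, Cd276 (limma, adjusted p = 0.00870) and, lower, Cd47 (limma, adjusted p = 0.0133), beside 46.9% of all genes. The blocked fits were not scaled, and the median of all genes moved by -0.25 and -0.13 in these contrasts. After scaling to the median, without the block, Cd47 gave -0.14 in IMDP against IMSP cells and -0.072 in G0M+ against G0M- cells. The differences of Cd47 were -0.053 to -0.034 in the 3 vehicle pairs and -0.47 to -0.32 in the 3 imatinib pairs, as the plot of pairs shows. The sources used here do not say what a pair of library numbers shares.

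**Figure D4:**
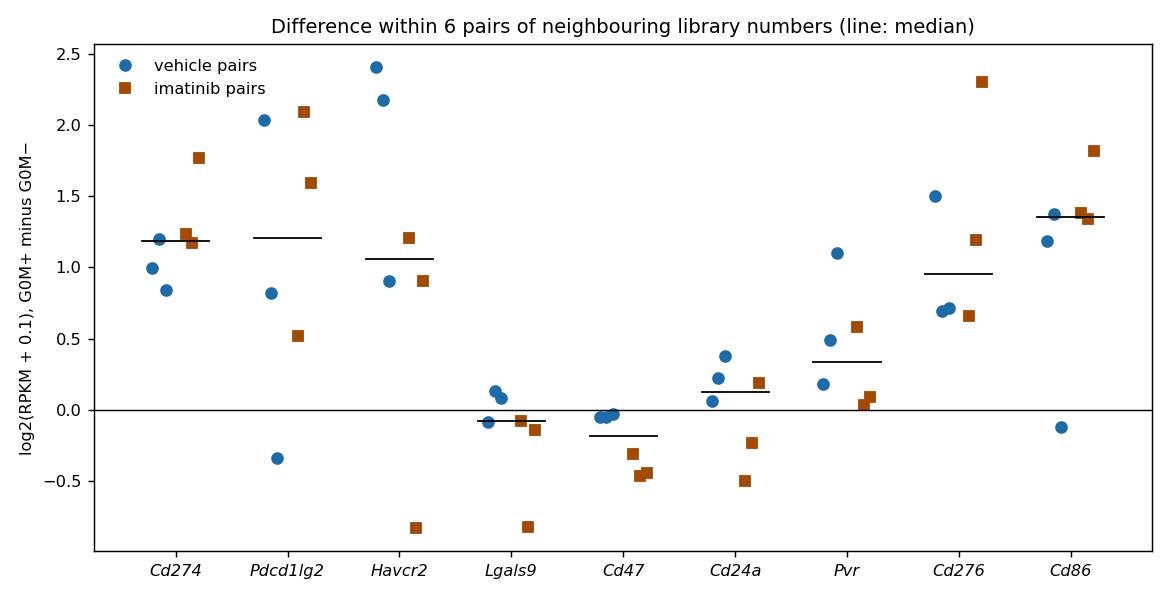
Difference of log2(RPKM + 0.1) between the G0M+ and the G0M- library (y axis) in each of the 6 pairs of neighbouring library numbers for 9 members, with circles for vehicle pairs, squares for imatinib pairs and a line at the median. All 6 points of Cd274 lie above 0 (median 1.19), and the 6 points of Cd47 lie below 0 (median -0.18).

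Markers of other cells are given here for the whole lists. Of 7 macrophage markers, 6 were above 0 in DP and in IMDP libraries and 3 in SP and in IMSP libraries. Their summed level was 4.79 to 12.4 RPKM in DP, 3.21 to 8.41 RPKM in SP, 13.6 to 18.2 RPKM in IMDP and 6.71 to 37.3 RPKM in IMSP libraries, so the sums of IMDP and IMSP libraries overlapped. The complement genes C1qa, C1qb and C1qc, which define resident macrophages, were at 0 in all 6 G0M- libraries, and summed to 2.90, 0.582 and 1.30 RPKM in DP1, DP2 and DP3 and to 3.48, 4.20 and 2.76 RPKM in the IMDP libraries. The library with the most C1q RNA among DP cells, DP1, had the lowest Cd274 of that group, and the one with the most among IMDP cells, IMDP2, had the highest. Marco was at 0 in all libraries. Of 5 dendritic cell markers, 3 to 4 were above 0 in each group. Their sums were 0.454 to 1.14 RPKM in DP and 0.0761 to 0.355 RPKM in SP libraries, without overlap. They were 0.531 to 1.32 RPKM in IMDP and 0.247 to 0.990 RPKM in IMSP libraries, which overlapped.

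Of 7 mast cell and basophil markers, 7 were above 0 in DP and IMDP libraries and 5 in SP and IMSP libraries, where Cma1 and Tpsb2 were at 0. The sum was 63.6 to 325 RPKM in DP, 14.2 to 44.9 RPKM in SP, 20.5 to 154 RPKM in IMDP and 6.77 to 25.7 RPKM in IMSP libraries. DP1 and IMDP1, the libraries with the highest mast cell sums of their groups, also had the highest Havcr2 of their groups. The sum of 6 T cell markers was 0.0281 to 2.94 RPKM with 3 to 5 above 0 in each group, IMDP1 had the highest sum, and Trac was at 0 in all libraries. Among other lineages the summed level of 5 erythroid markers was 196 to 263 RPKM in DP, 53.1 to 145 RPKM in SP, 56.5 to 377 RPKM in IMDP and 9.35 to 71.2 RPKM in IMSP libraries. The sum of 5 megakaryocyte markers was 25.0 to 119 RPKM in DP, 11.0 to 34.6 RPKM in SP, 11.5 to 73.2 RPKM in IMDP and 6.45 to 27.1 RPKM in IMSP libraries. The sum of 5 neutrophil markers was 1.76 to 18.6 RPKM in DP, 2.41 to 40.7 RPKM in SP, 0 to 1.77 RPKM in IMDP and 1.30 to 3.94 RPKM in IMSP libraries. The sum of 4 B cell markers, with Ms4a1 at 0 throughout, was 1.38 to 4.13 RPKM over all libraries, and that of 5 markers of endothelium and stroma was 9.34 to 18.3 RPKM. Under vehicle the erythroid, mast cell and dendritic cell sums were higher in DP than in SP libraries without overlap, and under imatinib these sums overlapped. In the megakaryocyte, neutrophil, B cell and endothelium and stroma sums the G0M+ and G0M- libraries of the same treatment overlapped. For Cd274, Pdcd1lg2, Havcr2 and Cd86 the part of all these other cells in the result was not tested. Fewer cells of a type and less RNA per cell cannot be told apart in sorted bulk libraries.

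Of 17 other checkpoint ligands listed, 9 were tested. IMDP against IMSP cells called 1 higher and 1 lower, where 2.37% of all genes were called higher and 23.3% lower, DP against SP cells called 1 higher, and the median log2 fold change of the 9 in IMDP against IMSP cells was -0.08, beside -0.25 for all genes. Entpd1 (CD39), which breaks down extracellular ATP on the way to immunosuppressive adenosine, rose by 1.69 in IMDP against IMSP cells (SE 0.34, limma, adjusted p = 0.00621), from 0.412 to 0.910 RPKM in IMSP to 1.79 to 3.10 RPKM in IMDP libraries. It reached 1 RPKM in G0M+ libraries alone, and was called without the filter on low values too (limma, adjusted p = 0.0120). Entpd1 was highest in IMDP2 (3.10 RPKM), the IMDP library with the most C1q RNA. Among DP cells it was highest in DP3 (1.33 RPKM), not in DP1, the one with the most C1q RNA, and the part of macrophages was not tested. Hmgb1, an alarmin and a ligand of TIM-3, fell by 1.05 in the same comparison (limma, adjusted p = 0.0163). Lgals3, the galectin-3 gene, rose by 3.43 in DP against SP cells (SE 0.80, limma, adjusted p = 0.0475), with DP1 at 7.31 RPKM and the SP libraries at 0.0528 to 0.691 RPKM. That call held in 4 of 12 fits with 1 library left out and in 6 of 11 other settings (adjusted p up to 0.168, limma or limma-voom). Lgals3 reached 1 RPKM in 5 G0M+ libraries and 1 G0M- library, IMSP3, and in no SP library. Its highest libraries within DP and IMDP cells were DP1 and IMDP1 (7.31 and 3.74 RPKM), those with the highest mast cell sums of their groups. DP1 also held the most C1q RNA and the highest macrophage, T cell, neutrophil and megakaryocyte sums of DP cells. IMDP1 also held the highest T cell and erythroid sums of IMDP cells, and the part of all these cells was not tested. Cd80, the B7-1 partner of Cd86, stayed at 0.0424 to 0.310 RPKM and was not tested.

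Of 17 receptors and partners of the members, 10 were tested, of which IMDP against IMSP cells called 1 higher and 1 lower, beside the same 2.37% and 23.3% of all genes, and the other pairs of groups called none (limma, adjusted p). Their median in IMDP against IMSP cells was 0.49. Cd200r1, the receptor of CD200 on myeloid cells, rose by 1.30 (SE 0.38, limma, adjusted p = 0.0296), with 3.12 to 4.05 RPKM in IMDP and 0.933 to 2.14 RPKM in IMSP libraries. It too was highest in DP1 and IMDP1 within DP and IMDP cells (4.32 and 4.05 RPKM), and the part of mast cells and of other cells was not tested. Cd44, an adhesion receptor that binds galectin-9, fell by 0.54 (limma, adjusted p = 0.0200), a call lost under scaling to the median. Sirpa, the receptor of CD47, was at 1.07 to 8.16 RPKM over all libraries and gave -0.38 in G0M+ against G0M- cells (limma, adjusted p = 0.430). Of 10 other settings 1 called Sirpa there (adjusted p = 0.0476, limma or limma-voom). P4hb, a thiol enzyme that binds galectin-9 at the cell surface, fell by 0.71 in that contrast (limma, adjusted p = 0.0417) and was picked out after its values were seen. That call held in 4 of 12 fits with 1 library left out, and was lost without the filter (limma, adjusted p = 0.0735) and under both scalings (limma, adjusted p = 0.0800 and 0.0843).

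Of 14 listed genes for eat-me signals and receptors for uptake, 9 were tested, and IMDP against IMSP cells called 2 higher and 2 lower. Of all genes 2.37% were called higher and 23.3% lower there, so the 2 lower lie near the share of all genes. The other pairs of groups called none. Calr, the gene of calreticulin, fell by 1.41 in IMDP against IMSP cells (SE 0.37, limma, adjusted p = 0.0194), with 154, 86.7 and 107 RPKM in IMDP and 435, 237 and 259 RPKM in IMSP libraries. Pdia3, a chaperone that travels with calreticulin to the surface, fell by 0.96 (limma, adjusted p = 0.0213). Axl, a receptor for uptake of dying cells, rose by 2.03 (SE 0.52, limma, adjusted p = 0.0172), and Pirb, a myeloid receptor of MHC class I, rose by 2.13 (SE 0.64, limma, adjusted p = 0.0306). Both reached 1 RPKM in G0M+ libraries alone, and without the filter on low values Axl was called (limma, adjusted p = 0.0250) and Pirb fell just short (limma, adjusted p = 0.05003). Axl was highest in IMDP2 (1.90 RPKM), the IMDP library with the most C1q RNA, and among DP cells in DP2 (1.33 RPKM), the one with the least. Pirb was highest in DP1 and IMDP1 (3.19 and 3.40 RPKM), the libraries with the most mast cell RNA of their groups. The part of mast cells and of other cells in these results was not tested. The call of Pdia3 was lost under scaling to the median (limma, adjusted p = 0.0627) and that of Pirb by limma-voom (adjusted p = 0.0729).

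In the main limma fit no tested regulator of PD-L1 was called higher in any comparison. Of 23 regulators, 22 were tested, and IMDP against IMSP cells called 0 higher and 3 lower by limma, a smaller share than the 23.3% of all genes called lower, with a median of -0.03. Cops5, whose product removes ubiquitin from PD-L1 and so keeps it, fell by 0.79 (SE 0.14, limma, adjusted p = 0.00368), and Spop, an adaptor of the ligase that marks PD-L1 for degradation, fell by 0.61 (limma, adjusted p = 0.0247). Ifngr2, a chain of the interferon-gamma receptor, fell by 0.57 (limma, adjusted p = 0.0486). Spop and Ifngr2 lost the call under scaling to the median, and Cops5 kept it. Ifngr2 was called in 5 of 11 other settings (adjusted p up to 0.324, limma or limma-voom), Spop in 8 and Cops5 in all 11. In G0M+ against G0M- cells Cmtm6, which protects PD-L1 from lysosomes, gave 0.053 (limma, adjusted p = 0.702). In 10 other settings it gave 0.049 to 0.24, and 1 of them passed (adjusted p = 0.0321, limma or limma-voom). Of the 12 companion genes called between pairs of groups, Entpd1 and Cops5 held in 12 of 12 fits with 1 library left out, and the others in 3 to 10.

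The 6 listed neighbours of Cd274 on chromosome 19 were all tested. By limma, 0 passed in the comparisons of pairs of groups, and 2 were called higher in G0M+ cells averaged over treatment, Pdcd1lg2 and Plgrkt. Of all genes 5.32% were called higher in that contrast. Pdcd1lg2 entered the test through G0M+ libraries alone, so the count is a description and supports nothing by itself. Plgrkt, the plasminogen receptor gene that shares its start region with Cd274, rose by 0.58 (SE 0.20, limma, adjusted p = 0.0481), and was picked out after its values were seen. The call held in 4 of 12 fits with 1 library left out and was lost without the filter (limma, adjusted p = 0.0784), with the filter of 0.5 RPKM (limma, adjusted p = 0.0515) and with the replicate block (limma, adjusted p = 0.0615). Jak2, the kinase of the interferon-gamma receptor on the other side of Plgrkt, gave 0.37 (limma, adjusted p = 0.131, and 0.0465 with the pairs as a block).

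**Figure D5:**
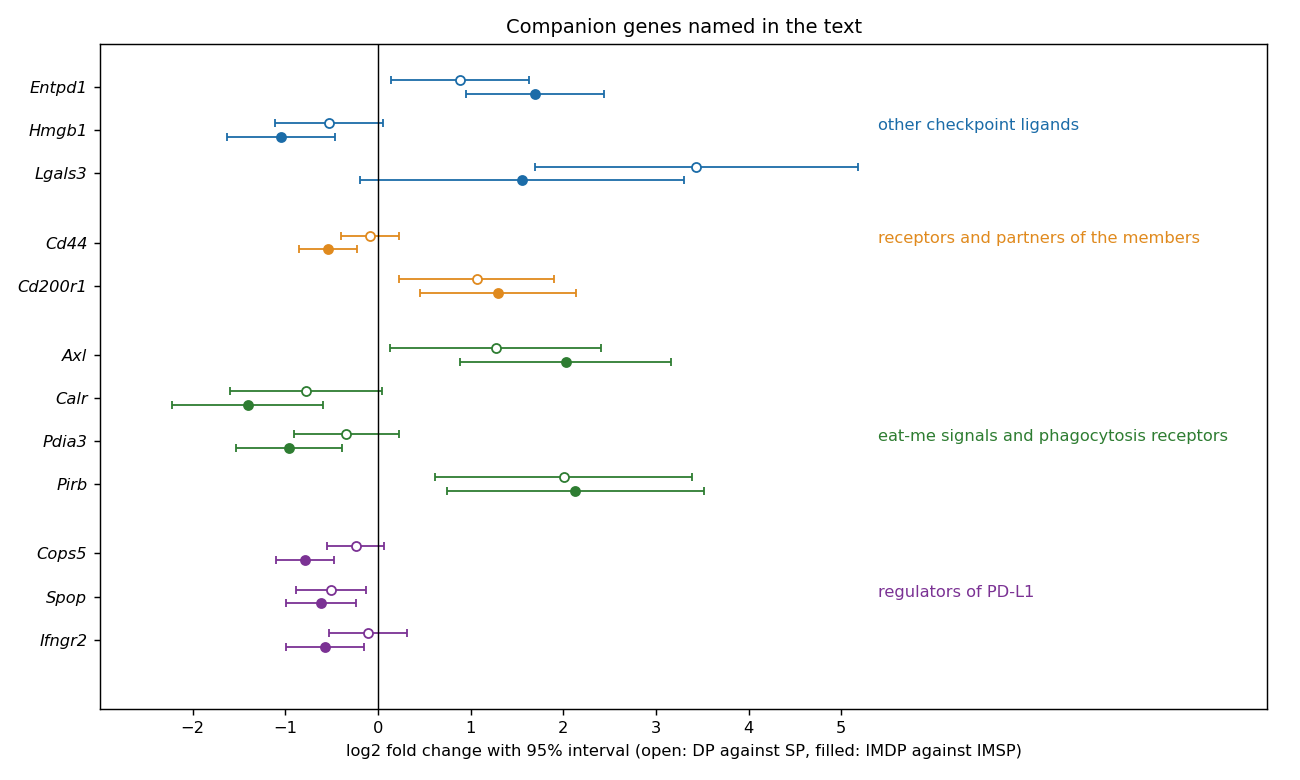
Log2 fold change with its 95% interval from limma for the genes of 4 companion lists that passed the threshold between a pair of groups, with open points for DP against SP cells and filled points for IMDP against IMSP cells. Entpd1, Cd200r1, Axl and Pirb lie above 0 in both comparisons, and the filled points of Hmgb1, Cd44, Calr, Pdia3, Cops5, Spop and Ifngr2 lie below 0.

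The pattern of Cd274 over the 12 libraries was closest to that of Inadl (Pearson r 0.977), Tcf7l2 (0.962), Unc13d (0.956), Ssh1 (0.955) and Tle2 (0.954) among the 10072 genes tested. After the group means were removed, the closest were Batf2 (r 0.990), Trim30b (0.985), Pdzk1ip1 (0.975), Zbtb20 (0.966) and Tspyl1 (0.965), and no gene stood in both sets of 5. Of the members, Pdcd1lg2 was the closest to Cd274 (r 0.79, rank 407) and Cd47 the farthest (r -0.70). These are descriptions over 12 libraries that share the depth and the population split, and carry no test.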

How the data were processed

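RNA of 12 libraries of 100 sorted cells was sequenced. The deposited values are RPKM per feature, which the authors made after mapping to GRCm38/mm10. For mapping, CLC Genomics Workbench is named in the methods, and HISAT2 with featureCounts in the reporting summary. The authors' statistics used edgeR. Numbered copies of genes were summed (no member has any). Whole reads behind the RPKM were recovered for all 17735 features above 0 (within 0.001 of a whole number per read). Genes that reached 1 RPKM in 3 or more libraries entered limma 3.58.1 (R 4.3.3), run on log2(RPKM + 0.1), so fold changes of low genes are understated, with 4 group means, all 12 libraries and Benjamini-Hochberg adjustment over all genes (threshold 0.05). RPKM are not counts, so limma-voom on the recovered reads is an alternative only. Scripts were tested on simulated data. Positions are from GENCODE M21 (GRCm38). All members are given in each library. Log2 fold changes with errors are given for pairs past the threshold or of at least 1 in size, and intervals for some others. Companion genes past the threshold between 2 groups are named, up to 4 per list, besides a few fixed ones, of which 1 is not reported here. The members and lists were chosen with earlier results of these data known, and the study itself reported Cd274, Cd86, Cd80 and Havcr2 from these libraries, so they are not independent evidence. Replicate numbers paired IMDP with IMSP libraries (correlation of same-numbered deviations 0.43, 0.65 and 0.46, from the data), and no other groups.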

Additional observations from a re-analysis of the deposited data

How the results depend on the processing

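Alternatives covered 2 other filters and 2 other pseudocounts, a fit of the compared groups alone, 2 scalings, numbered copies kept apart, limma-voom, 2 blocks and each library left out. In DP against SP cells the number of members called stayed 0 except for 2 with the library pair block. In IMDP against IMSP cells it was 2 with a filter of 0.5 RPKM, 2 without a filter (Cd274 and Cd86 both times), 2 with the replicate block (Cd274 and Pdcd1lg2), 4 with the library pair block, and 0 to 4 with 1 library left out: 0 without IMSP replicate 1, 2 without IMSP replicate 2 and 4 without IMDP replicate 1. In G0M+ against G0M- cells it was 5 with the library pair block and 1 to 4 with 1 library left out. It fell to 1, Cd274, without any one of DP1, DP2, DP3, SP1, SP2, IMDP3, IMSP1 or IMSP3. The replicate block lowered it from 3 to 2 by losing Havcr2 (limma, adjusted p = 0.0536), and left it at 0 in the 5 contrasts that had 0. Cd274 passed in that contrast in 12 of 12 fits with 1 library left out and 10 of 10 others. Of the treatment contrasts and the interaction none called a member under any alternative that was run. Besides the small differences of Lgals9, Cd47 and Cd24a that turned with the scaling, the sign turned for Cmtm6, with -0.013 in G0M+ against G0M- cells without IMDP replicate 1 (limma, adjusted p = 0.913) and up to 0.090 without another library. The causes were not tested.

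In imatinib against vehicle, scaling to the median changed the calls over all genes from 25 higher of 86 to 66 higher of 162, and in IMDP against DP cells from 3 of 37 to 0 of 2. On the recovered reads limma-voom called 263 genes in DP against SP cells, 2564 genes between IMDP and IMSP, 8 between IMDP and DP, 2834 in G0M+ against G0M- cells and 93 in imatinib against vehicle. The Cd86 fits combined each alternative with no filter and were added after seeing the data. The library pair block raised the calls over all genes in DP against SP cells from 228 to 980, and leaving out IMSP replicate 1 lowered those in IMDP against IMSP cells from 2581 to 902. For members below 2 RPKM the read counts limit what can be seen, and intervals from reads cover counting error only.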
